A study of Mus musculus with 12 samples.

Results

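The cell cycle genes described here are 46 of the 26190 genes in the expression table of the series, taken by name. They comprise 13 genes of S phase and DNA replication, 2 genes for cyclin E, 22 genes of mitosis, the proliferation marks Mki67 and Top2a, 3 transcription factor genes, the 3 cyclin D genes and the Cdk inhibitor gene Cdkn1a. RNA was sequenced from hearts of E11.5 mouse embryos (E11.5H) and from heart organoids (HOs) after 13 days of culture. The 4 groups, with 3 libraries each, were the atria and the ventricles dissected from E11.5H and the atrium-like and ventricle-like parts dissected from HOs. Per the methods the HO samples were dissected into both parts. The labels do not say which libraries shared a sample, so no pairing was used in the main tests. The labels gave C57BL/6 as the strain of all groups, with no treatment or transgene that differed between libraries. HOs were grown from embryoid bodies of mouse embryonic stem cells on a laminin-entactin gel with FGF4, with BIO (a Wnt activator), BMP4 and LIF added later, so these agents came with the organoid groups only. The methods name stem cell lines from C57BL/6 and from an F1 hybrid with JF1, and do not say which of them gave these libraries. They call the HO samples biological replicates, while nothing in the labels says that libraries of a group came from separate litters or cultures, so p-values measure only the spread between these samples. The comparisons ask how far the parts of HOs matched the chambers of the embryonic heart, and whether the parts differed from each other as the chambers did.

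A dividing cell copies its DNA in S phase and separates the copies in mitosis. Cyclin D with Cdk4 or Cdk6, and then cyclin E with Cdk2, release E2F factors from the Rb family, and E2F factors switch on genes for DNA replication. Later the MuvB complex with B-Myb (Mybl2) and FoxM1 switches on the mitotic genes, and p21 (Cdkn1a), a target of p53, inhibits Cdk complexes. Heart muscle cells of the mouse embryo still divide, and most of them stop dividing soon after birth.

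Libraries held between 23971258 and 30540993 assigned fragments, so counting error was small for most members. It was larger at low levels, as for Cdc6 in atrium-like replicate 1 at 0.202 FPKM. Pairs of libraries of a group correlated between 0.994 and 0.996 in E11.5H and between 0.918 and 0.967 in HOs (Pearson's r across genes on log2(FPKM + 1)), so the organoid libraries were less alike. Summed levels of most lists of cell type markers did not overlap between the tissues, while those of fibroblast, neural and skeletal muscle markers did. The 16 cardiomyocyte markers summed to between 16773 and 19508 FPKM in E11.5H and between 308 and 4518 FPKM in HOs, and none was at 0 in all libraries of a tissue. The 12 markers of hepatocytes and visceral endoderm summed to between 13.8 and 17.5 FPKM in E11.5H, where Serpina1a was at 0, and to between 110 and 14055 FPKM in HOs. The 12 gut epithelium markers summed to between 74.5 and 102 FPKM in E11.5H and between 651 and 4363 FPKM in HOs. The 10 erythroid markers summed to between 7317 and 72151 FPKM in E11.5H and between 4.52 and 27.6 FPKM in HOs, where Slc4a1 was at 0. Fibroblast markers summed to between 428 and 756 FPKM in E11.5H and between 545 and 4836 FPKM in HOs. Macrophage markers summed to between 41.4 and 72.2 and between 82.7 and 919, and endothelial markers to between 146 and 177 and between 6.31 and 67.2. Pluripotency markers summed to between 1.96 and 3.84 FPKM in E11.5H, where Pou5f1 and Zfp42 were at 0, and between 12.6 and 36.0 FPKM in HOs. Smooth muscle markers summed to between 1108 and 1526 FPKM in E11.5H and between 92.2 and 565 FPKM in HOs. Neural markers summed to between 19.5 and 28.9 and between 5.34 and 179 (Sox1 at 0 in both tissues, Otx2 in E11.5H). Skeletal muscle markers summed to between 8.68 and 30.5 and between 1.11 and 64.1. In such bulk RNA, fewer cells of a type and less RNA per cell cannot be told apart, and the part of these cells in the results below was not tested.

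RefSeq promoter windows of GRCm38.p6, from 250 bases before to 50 bases after a start site, were at hand for 36 of the 46 members. Both strands were searched for the CHR element of MuvB targets (TTTGAA or TTCGAA), for CCAAT, and for an E2F site (TTTCGCGC or TTTGGCGC). TTCGAA reads the same on both strands, and the 2 E2F forms can overlap when they lie on opposite strands. A CHR stood in a window of 14 of 18 mitotic genes with one (77.8%) and of 3 of 12 S phase and cyclin E genes (25.0%), against 21.7% of the 27025 genes in the table. CCAAT stood in 88.9% of those mitotic genes and 75.0% of those S phase and cyclin E genes, against 41.1% of all genes. An E2F site stood in 4 of the 12 S phase and cyclin E genes (33.3%) and in 1 of the 18 mitotic genes, against 0.929% of all genes. These matches describe the letters of the windows and show no binding. The 200 bases before the start site are printed for 2 helicase genes with E2F sites, Mcm5 (chr8:75109309-75109508, plus strand) and Mcm6 (chr1:128359706-128359905, minus strand). They are also printed for Cdk1 (chr10:69352913-69353112, minus strand) and Top2a (chr11:99024190-99024389, minus strand), which hold CHR elements. Capitals mark all matches to the motifs, on either strand.
Mcm5: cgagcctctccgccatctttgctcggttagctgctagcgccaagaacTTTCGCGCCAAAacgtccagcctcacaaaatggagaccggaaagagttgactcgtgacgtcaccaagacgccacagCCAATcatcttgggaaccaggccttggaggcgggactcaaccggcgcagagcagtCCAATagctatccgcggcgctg
Mcm6: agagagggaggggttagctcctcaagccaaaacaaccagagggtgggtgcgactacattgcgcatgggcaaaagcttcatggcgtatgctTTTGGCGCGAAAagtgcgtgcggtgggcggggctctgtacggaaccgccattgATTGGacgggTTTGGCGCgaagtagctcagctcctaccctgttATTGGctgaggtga
Cdk1: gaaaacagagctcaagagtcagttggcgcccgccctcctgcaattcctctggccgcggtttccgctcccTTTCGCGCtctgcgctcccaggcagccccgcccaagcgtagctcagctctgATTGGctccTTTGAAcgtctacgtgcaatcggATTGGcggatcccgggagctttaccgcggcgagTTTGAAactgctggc
Top2a: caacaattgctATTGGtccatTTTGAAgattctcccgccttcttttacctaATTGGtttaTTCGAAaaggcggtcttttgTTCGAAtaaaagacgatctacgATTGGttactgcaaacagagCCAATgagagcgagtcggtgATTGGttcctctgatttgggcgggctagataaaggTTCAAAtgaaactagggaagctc
In Mcm5 the capitals are an overlapping pair of E2F sites and 2 CCAAT boxes, and in Mcm6 they are 3 E2F sites, of which 2 overlap, and 2 CCAAT boxes. In Cdk1 they are 1 E2F site, 2 CHR elements and 2 CCAAT boxes. In Top2a they are 4 CHR elements and 5 CCAAT boxes, with no E2F site.

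Nearly all of these genes were lower in HOs than in E11.5H, and Cdkn1a was higher. In 43 of the 46 members every organoid library was below every embryonic library in FPKM (fragments per kilobase of exon, scaled to the mapped fragments of the library), an order that 13.6% of 16496 genes showed. Mybl2 and Ccnd2 were the members whose values met, and Cdkn1a was above all embryonic libraries in every organoid library.

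**Figure D1:**
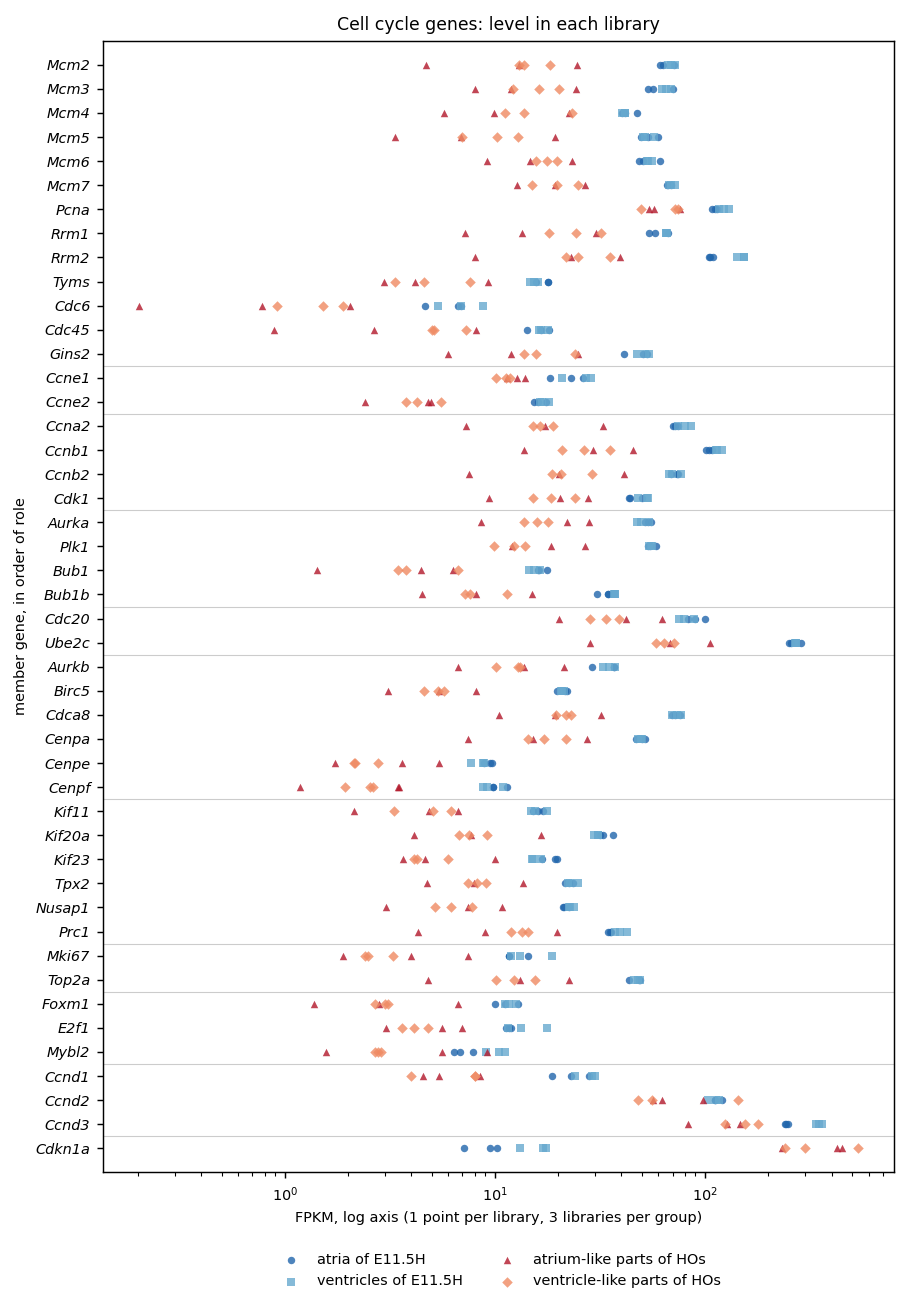
FPKM of the 46 members in each of the 12 libraries on a log axis, with 1 point per library and genes in order of role. The red and orange organoid points lie left of the blue embryonic points for 43 genes, meet them for Mybl2 and Ccnd2, and lie right of them for Cdkn1a at the bottom.

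Each difference was put to the quasi-likelihood test of edgeR. A gene was called where its adjusted p (Benjamini-Hochberg, over all genes tested) was under 0.05 and its log2 fold change was beyond 1 in either direction. All 46 members passed the filter on low counts in every comparison. Below, genes that fell or rose are those called lower or higher. Between the atrium-like parts and the atria, 37 members were called lower and 1 higher, where 24.8% of 15418 genes were called and 8.81% were called lower. The median log2 fold change of the members was -1.62, against 0.062 over all genes. The libraries did not overlap and were lower in HOs for 44 members, against 30.3% of all genes. The 8 members not called were Pcna, Cdc45, Ccne1, Ccnb2, Cdc20, Mybl2, Ccnd2 and Ccnd3. This count rested on single libraries. It was 6, 5 and 8 lower members without atria replicate 1, 2 and 3 and 13 without atrium-like replicate 3, when the calls over all genes also fell, from 3821 to between 1662 and 2915, while the median stayed between -1.97 and -1.36. Birc5, Ccnd1, Ccne2, Mcm7, Plk1 and Cdkn1a were called in all 15 settings run for this comparison.

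Between the ventricle-like parts and the ventricles, 44 members were called lower and 1 higher, where 18.9% of 15094 genes were called and 7.35% were called lower. The median log2 fold change was -1.86, against 0.093 over all genes. The libraries did not overlap and were lower in HOs for 44 members, against 21.1% of all genes. Ccnd2 was the member not called. Here the lower count stayed between 41 and 44 without any 1 library, and 42 members were called in all 15 settings. Calls lower over all genes ranged from 557 to 1470 without 1 library, against 1110 with all.

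**Figure D2:**
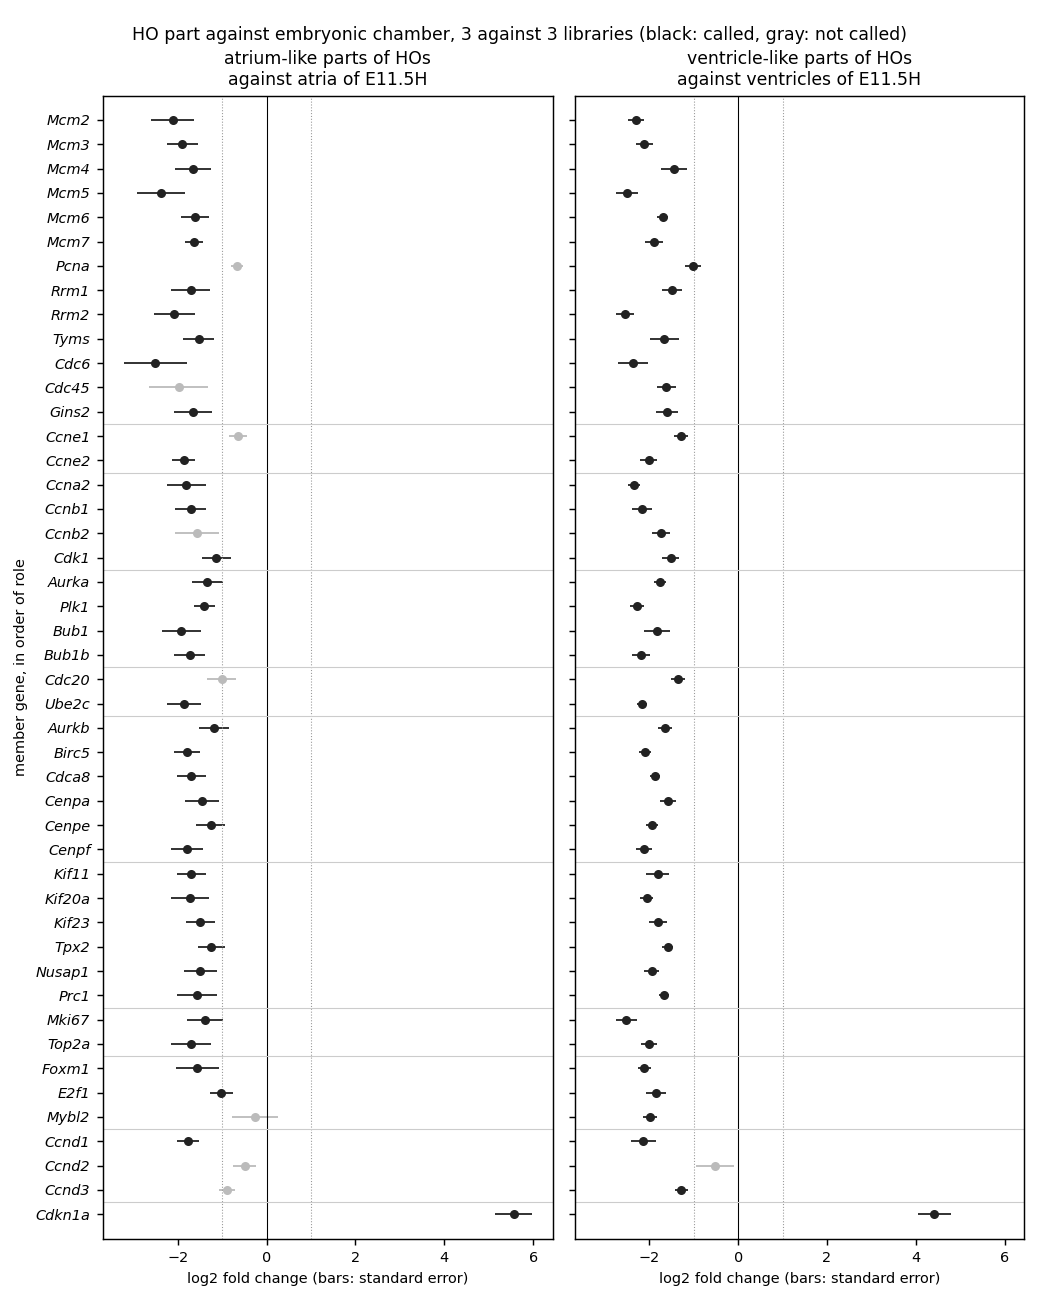
Log2 fold change with its standard error, derived from the test statistic, for each member, 3 against 3 libraries. Atrium-like parts against atria are on the left and ventricle-like parts against ventricles on the right. Black points were called and gray points were not, dotted lines mark a log2 fold change of 1 either way, and all members but Cdkn1a lie left of 0 in both panels.

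The 13 S phase and replication genes were lower in both organoid parts. All 13 were called in the ventricle-like parts and 11 in the atrium-like parts. Over all genes tested, 7.35% and 8.81% were called lower there. Mcm2 to Mcm7 encode the replicative helicase, Cdc6 loads it onto origins, and Cdc45 and Gins2 belong to its active form. Mcm2 was at 63.2, 71.4 and 61.1 FPKM in the atria, at 66.7, 72.1 and 68.7 in the ventricles, at 4.67, 24.5 and 13 in the atrium-like parts and at 18.2, 13.8 and 13 in the ventricle-like parts. All its organoid values lay far below the embryonic ones, and they spread most in the atrium-like parts. Mcm2 fell 4.33-fold in the atrium-like parts (log2 fold change -2.11, SE 0.48, edgeR adjusted p = 0.0207). The ventricle-like fall was 4.92-fold (log2 fold change -2.30, SE 0.17, edgeR adjusted p = 0.00136).

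Mcm5, whose promoter is printed above, was at 53.3, 59.4 and 49.5 FPKM in the atria and at 51.6, 57.2 and 50.6 in the ventricles. It was at 3.35, 19.2 and 6.92 FPKM in the atrium-like parts and at 12.8, 10.2 and 6.93 in the ventricle-like parts. It had the deepest fall of the helicase genes on both sides. The fall was 5.18-fold in the atrium-like parts (log2 fold change -2.37, SE 0.54, edgeR adjusted p = 0.0202). It was 5.67-fold in the ventricle-like parts (log2 fold change -2.50, SE 0.24, edgeR adjusted p = 0.00216). The other helicase genes, Mcm3, Mcm4, Mcm6 and Mcm7, fell between 2.73-fold (Mcm4, ventricle-like) and 4.32-fold (Mcm3, ventricle-like).

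Pcna, the sliding clamp of DNA polymerase, had the smallest change of the 13. It was at 114, 111 and 108 FPKM in the atria and at 130, 117 and 123 in the ventricles. It was at 53.8, 75.7 and 57.2 FPKM in the atrium-like parts and at 74.5, 72.0 and 49.3 in the ventricle-like parts. The groups did not overlap, and both organoid groups covered nearly the same range. Its log2 fold change was -0.67 (SE 0.14, edgeR adjusted p = 0.0152) in the atrium-like parts, short of the fold threshold. Against the ventricles it fell 2.02-fold (log2 fold change -1.01, SE 0.18, edgeR adjusted p = 0.0106), just past it.

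Rrm2, a subunit of ribonucleotide reductase, which makes deoxyribonucleotides, was at 104, 106 and 109 FPKM in the atria and at 154, 142 and 154 in the ventricles. It was at 8.06, 39.4 and 22.9 FPKM in the atrium-like parts and at 35.2, 21.7 and 24.7 in the ventricle-like parts. The ventricles stood above the atria, while the organoid parts overlapped. Rrm2 fell 4.23-fold in the atrium-like parts (log2 fold change -2.08, SE 0.46, edgeR adjusted p = 0.0190). In the ventricle-like parts it fell 5.86-fold (log2 fold change -2.55, SE 0.21, edgeR adjusted p = 0.00164), the deepest fall of any member there. Its partner subunit Rrm1 fell 3.27-fold and 2.81-fold, and Tyms, the thymidylate synthase, fell 2.89-fold and 3.16-fold.

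Cdc6 was the lowest of the 13 in level and had the deepest fall of all members in the atrium-like parts. It was at 6.86, 6.70 and 4.64 FPKM in the atria, at 8.81, 6.86 and 5.35 in the ventricles, at 0.202, 2.03 and 0.777 in the atrium-like parts and at 1.88, 0.914 and 1.51 in the ventricle-like parts. The log2 fold change was -2.51 (SE 0.71, edgeR adjusted p = 0.0382) in the atrium-like parts. It was -2.37 (SE 0.34, edgeR adjusted p = 0.00603) in the ventricle-like parts. Cdc45 had a log2 fold change of -1.98 in the atrium-like parts and missed the threshold (edgeR adjusted p = 0.0664), with 0.89 FPKM in replicate 1 and 8.16 in replicate 2. Gins2 fell 3.15-fold and 3.04-fold.

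The 2 cyclin E genes, which drive entry into S phase, differed in size of change. Ccne1 was at 18.3, 23.0 and 26.2 FPKM in the atria, at 27.0, 28.7 and 20.8 in the ventricles, at 12.7, 13.9 and 11.4 in the atrium-like parts and at 11.8, 10.1 and 11.3 in the ventricle-like parts. The organoid libraries were below all embryonic ones and close to each other. Its log2 fold change was -0.65 (SE 0.20, edgeR adjusted p = 0.0493) in the atrium-like parts, short of the fold threshold. The ventricle-like fall was 2.45-fold (log2 fold change -1.29, SE 0.16, edgeR adjusted p = 0.00417).

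Ccne2 was at 16, 15.3 and 17.5 FPKM in the atria, at 18.1, 16.8 and 16.4 in the ventricles, at 2.41, 4.97 and 4.78 in the atrium-like parts and at 5.55, 4.26 and 3.77 in the ventricle-like parts. The gap between tissues was wide, with no overlap. Ccne2 fell 3.63-fold in the atrium-like parts (log2 fold change -1.86, SE 0.26, edgeR adjusted p = 0.00531). Against the ventricles it fell 4.02-fold (log2 fold change -2.01, SE 0.19, edgeR adjusted p = 0.00208). Whether the changes of Ccne1 and Ccne2 differ from each other was not tested.

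The 22 mitotic genes were all lower in both organoid parts, with 20 called in the atrium-like parts and all 22 in the ventricle-like parts. Over all genes tested, 8.81% and 7.35% were called lower. The summed level of the mitotic genes lay between 1133 and 1207 FPKM over the embryonic libraries and between 165 and 567 FPKM over the organoid libraries. Cyclin B1 with Cdk1 forms the kinase that starts mitosis. Ccnb1 was at 108, 104 and 101 FPKM in the atria, at 113, 114 and 120 in the ventricles, at 13.7, 45.5 and 29.2 in the atrium-like parts and at 35.2, 20.9 and 26.4 in the ventricle-like parts. The embryonic chambers were nearly level, and every organoid library was under them. Ccnb1 fell 3.27-fold in the atrium-like parts (log2 fold change -1.71, SE 0.34, edgeR adjusted p = 0.0146). In the ventricle-like parts it fell 4.48-fold (log2 fold change -2.16, SE 0.22, edgeR adjusted p = 0.00232).

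Cdk1 was at 50, 43.5 and 43.7 FPKM in the atria, at 53.1, 48.1 and 53.7 in the ventricles, at 9.36, 27.8 and 20.3 in the atrium-like parts and at 23.9, 18.4 and 15.2 in the ventricle-like parts. It kept more of its embryonic level than its cyclin partners in all organoid libraries, and its groups did not overlap. Cdk1 fell 2.19-fold in the atrium-like parts (log2 fold change -1.13, SE 0.32, edgeR adjusted p = 0.0378). The ventricle-like fall was 2.87-fold (log2 fold change -1.52, SE 0.19, edgeR adjusted p = 0.00406). Ccna2, for cyclin A2, fell 3.51-fold and 5.07-fold. Ccnb2 fell 3.34-fold in the ventricle-like parts, and its log2 fold change of -1.56 in the atrium-like parts missed the threshold (edgeR adjusted p = 0.0538).

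The 4 kinase and checkpoint genes fell on both sides. Plk1, a kinase of mitotic entry and spindle assembly, fell 2.64-fold in the atrium-like parts and 4.86-fold in the ventricle-like parts. Bub1 and Bub1b, of the spindle checkpoint, fell 3.79-fold and 3.32-fold in the atrium-like parts and 3.53-fold and 4.56-fold in the ventricle-like parts. Aurka, a centrosome kinase, had the smallest falls of the 4, 2.51-fold and 3.39-fold. Their embryonic levels ran from 14.5 FPKM (Bub1) to 58.3 FPKM (Plk1), and their organoid levels from 1.42 FPKM (Bub1) to 28.0 FPKM (Aurka).

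Ube2c, the E2 enzyme of the anaphase-promoting complex, had the highest embryonic level of the mitotic genes, between 251 and 285 FPKM, and was between 28.2 and 106 FPKM in HOs. It fell 3.62-fold in the atrium-like parts (edgeR adjusted p = 0.0160) and 4.47-fold in the ventricle-like parts (edgeR adjusted p = 8.9e-04). Cdc20, the activator of the complex, fell 2.57-fold in the ventricle-like parts. Its log2 fold change of -1.01 in the atrium-like parts missed the threshold (edgeR adjusted p = 0.0564), and Cdc20 kept the largest share of its embryonic level among the mitotic genes in 5 of the 6 organoid libraries.

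The 6 genes of the chromosomal passenger complex and the kinetochore fell on both sides. Birc5, Cdca8 and Aurkb encode survivin, borealin and the kinase of the passenger complex, and Cenpa, Cenpe and Cenpf encode a centromeric histone, a kinetochore motor and a kinetochore protein. Their log2 fold changes lay between -1.80 (Cenpf) and -1.18 (Aurkb) in the atrium-like parts and between -2.12 (Cenpf) and -1.57 (Cenpa) in the ventricle-like parts. Cdca8 was the highest of them, between 69.4 and 76.9 FPKM in E11.5H and between 10.4 and 32.1 FPKM in HOs. Cenpe had the lowest means in E11.5H, with libraries between 7.68 and 9.72 FPKM.

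The 6 genes of the spindle and cytokinesis also fell on both sides. Kif11 encodes the motor that separates the spindle poles, Kif20a, Kif23 and Prc1 act in the central spindle, and Tpx2 and Nusap1 bind spindle microtubules. Kif20a had the largest change in both comparisons, 3.30-fold and 4.16-fold, and Tpx2 the smallest, 2.36-fold and 3.02-fold. Prc1 had the highest embryonic means, with libraries between 34.4 and 42.3 FPKM, and was between 4.30 and 19.8 FPKM in HOs.

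Mki67, which encodes the proliferation mark Ki-67, was at 11.6, 11.6 and 14.3 FPKM in the atria, at 11.9, 13.1 and 18.6 in the ventricles, at 1.89, 7.43 and 3.98 in the atrium-like parts and at 2.49, 2.40 and 3.26 in the ventricle-like parts. The ventricle-like values were tight and the atrium-like values ran from below them to well above them. Mki67 fell 2.61-fold in the atrium-like parts (log2 fold change -1.39, SE 0.40, edgeR adjusted p = 0.0414). Against the ventricles it fell 5.73-fold (log2 fold change -2.52, SE 0.24, edgeR adjusted p = 0.00216).

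Top2a, the topoisomerase that untangles sister chromatids, was at 43.2, 49.2 and 48.4 FPKM in the atria, at 45.7, 47.7 and 49.2 in the ventricles, at 4.82, 22.4 and 13.1 in the atrium-like parts and at 15.5, 12.3 and 10.1 in the ventricle-like parts. All organoid libraries were below all embryonic ones. Top2a fell 3.24-fold in the atrium-like parts (log2 fold change -1.70, SE 0.44, edgeR adjusted p = 0.0308). In the ventricle-like parts it fell 4.02-fold (log2 fold change -2.01, SE 0.18, edgeR adjusted p = 0.00191).

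Among the transcription factor genes, Foxm1 and E2f1 fell on both sides and Mybl2 fell in the ventricle-like parts. Foxm1 was at 10, 11.2 and 12.9 FPKM in the atria, at 11.1, 12.6 and 11.7 in the ventricles, at 1.38, 6.63 and 2.81 in the atrium-like parts and at 3.09, 2.68 and 2.98 in the ventricle-like parts. The groups did not overlap between tissues. Foxm1 fell 2.94-fold in the atrium-like parts (log2 fold change -1.56, SE 0.48, edgeR adjusted p = 0.0494). The ventricle-like fall was 4.31-fold (log2 fold change -2.11, SE 0.14, edgeR adjusted p = 0.00118).

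E2f1, an activator of replication genes, was at 11.9, 11.3 and 11.6 FPKM in the atria, at 14.1 ± 3.13 (SD, n = 3) in the ventricles with 17.6 the highest, at 3.02, 6.93 and 5.58 in the atrium-like parts and at 4.81, 4.12 and 3.59 in the ventricle-like parts. No organoid library reached an embryonic one. E2f1 fell 2.03-fold in the atrium-like parts (log2 fold change -1.02, SE 0.26, edgeR adjusted p = 0.0291). Against the ventricles it fell 3.61-fold (log2 fold change -1.85, SE 0.22, edgeR adjusted p = 0.00366).

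Mybl2 was at 6.82, 7.86 and 6.37 FPKM in the atria, at 9.05, 10.4 and 11.1 in the ventricles, at 1.57, 9.15 and 5.62 in the atrium-like parts and at 2.69, 2.85 and 2.77 in the ventricle-like parts. Atrium-like replicate 2 was above all 3 atria, so these groups overlapped. The log2 fold change was -0.26 (SE 0.51, edgeR adjusted p = 0.724) in the atrium-like parts, and 0.12 without atrium-like replicate 1. In ventricle-like tissue Mybl2 fell 3.93-fold (log2 fold change -1.98, SE 0.16, edgeR adjusted p = 0.00153).

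The D-type cyclins, which carry growth signals to Cdk4 and Cdk6, had negative log2 fold changes on both sides, with 1 of 3 called in the atrium-like and 2 of 3 in the ventricle-like parts. Whether their changes differ from each other was not tested. Their summed level was between 374 and 493 FPKM in E11.5H and between 150 and 331 FPKM in HOs. Ccnd1 was at 28.0, 23.0 and 18.6 FPKM in the atria, at 28.8, 29.8 and 23.9 in the ventricles, at 4.54, 8.49 and 5.44 in the atrium-like parts and at 3.96, 8.07 and 7.99 in the ventricle-like parts. It was the lowest of the 3 cyclins in every library, and its tissues did not overlap. Ccnd1 fell 3.41-fold in the atrium-like parts (log2 fold change -1.77, SE 0.24, edgeR adjusted p = 0.00523). In the ventricle-like parts it fell 4.40-fold (log2 fold change -2.14, SE 0.28, edgeR adjusted p = 0.00475).

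Ccnd2 was at 121, 112 and 112 FPKM in the atria, at 113, 116 and 103 in the ventricles, at 62.4, 56.4 and 98.2 in the atrium-like parts and at 55.6, 47.8 and 144 in the ventricle-like parts. Ventricle-like replicate 3 was above all embryonic libraries, and atrium-like replicate 3 lay just below them. Its log2 fold change was -0.49 (SE 0.26, edgeR adjusted p = 0.189) in the atrium-like parts. In the ventricle-like parts it was -0.52 (SE 0.43, edgeR adjusted p = 0.391), and without ventricle-like replicate 3 it was -1.22 and called (edgeR adjusted p = 0.00192).

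Ccnd3, the cyclin with the highest level in all libraries, was at 247, 240 and 243 FPKM in the atria, at 336, 347 and 359 in the ventricles, at 82.6, 147 and 127 in the atrium-like parts and at 124, 155 and 178 in the ventricle-like parts. The atria and ventricles were separate from each other and from HOs. Its log2 fold change was -0.89 (SE 0.18, edgeR adjusted p = 0.0140) in the atrium-like parts, short of the fold threshold. Against the ventricles, Ccnd3 fell 2.43-fold (log2 fold change -1.28, SE 0.15, edgeR adjusted p = 0.00347). As a share of the summed cyclin D level, Ccnd2 made up between 21.2% and 30.5% in E11.5H and between 22.6% and 43.6% in HOs. The share was 41.7% and 42.6% in atrium-like replicates 1 and 3 and 43.6% in ventricle-like replicate 3.

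Cdkn1a was the member that rose. It was at 10.2, 7.14 and 9.50 FPKM in the atria, at 13.2, 16.9 and 17.4 in the ventricles, at 423, 232 and 447 in the atrium-like parts and at 298, 241 and 537 in the ventricle-like parts. Each organoid library was far above each embryonic one. Cdkn1a rose 47.3-fold in the atrium-like parts (log2 fold change 5.56, SE 0.42, edgeR adjusted p = 0.00133). Against the ventricles it rose 21.2-fold (log2 fold change 4.41, SE 0.37, edgeR adjusted p = 0.00161). The call held in all 15 settings on both sides, with log2 fold changes between 5.35 and 5.85 and between 3.97 and 4.65. Cdkn1a was at between 0.0191 and 0.0359 times the summed cyclin D level in E11.5H and at between 1.10 and 2.83 times that level in HOs.

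**Figure D3:**
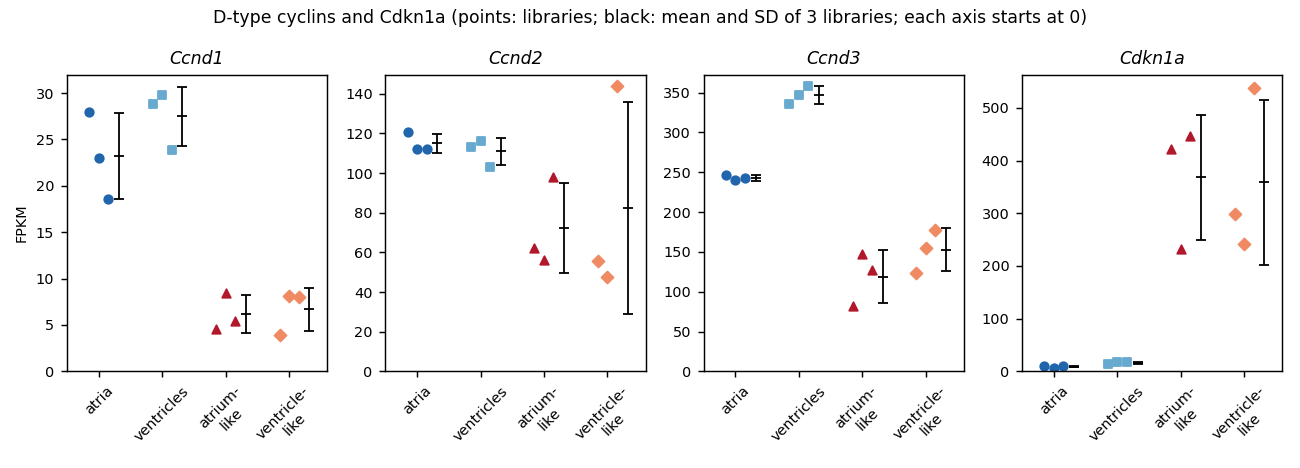
FPKM of the 3 cyclin D genes and of Cdkn1a by group on linear axes from 0, with a point for each of 3 libraries and the mean with SD in black. Ccnd1 and Ccnd3 are lower in both organoid groups, 1 ventricle-like library of Ccnd2 stands at 144 above the embryonic range, and Cdkn1a is near 0 on its axis in E11.5H and between 232 and 537 in HOs.

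Within E11.5H no member was called between atria and ventricles, where 4.9% of 14536 genes were called. At an adjusted p under 0.05 alone, 5 members were lower in the atria, where 7.16% of all genes were. These were Rrm2 (log2 fold change -0.56, edgeR adjusted p = 4.14e-04), Ccnd3 (-0.58, edgeR adjusted p = 2.55e-04), Cdkn1a (-0.89, edgeR adjusted p = 0.00746), Mybl2 (-0.61, edgeR adjusted p = 0.0102) and Prc1 (-0.24, edgeR adjusted p = 0.0484). For all 5 genes the atria lay below the ventricles with no overlap, as they did for 10 members and for 11.8% of all genes. Cdkn1a passed the fold threshold too without atria replicate 1 (-1.01) or without ventricles replicate 1 (-1.02). The median over the members was -0.12, against 0.014 over all genes, and it was 0.09 when libraries were scaled to 12 housekeeping genes, which moved the median of all genes to 0.23.

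Within HOs edgeR called no member between the parts, and it called none of 15703 genes (0.0%). At an unadjusted p under 0.05 there was 1 member, Plk1, and 5.66% of all genes. DESeq2's Wald test and limma-voom also called no member, while they called 59 and 0 of all genes. Plk1 was at 12, 26.9 and 18.5 FPKM in the atrium-like parts and at 12.3, 9.91 and 13.9 in the ventricle-like parts. Its log2 fold change was 0.80 (SE 0.27, edgeR adjusted p = 0.75), and the groups overlapped. Libraries of the 2 groups overlapped for all 46 members, while 13.3% of all genes had no overlap. The median over the members was 0.14, and it was -0.17 without atrium-like replicate 2.

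The difference between the chamber steps of the tissues was tested with all 12 libraries as an interaction, and no member was called, where 0.152% of 16494 genes were. At an unadjusted p under 0.05 there were 5 members, Mybl2, Plk1, Mki67, E2f1 and Ccne1, and 11.7% of all genes. Mybl2 had the largest value, a log2 difference of 1.70 (SE 0.58, edgeR adjusted p = 0.325). It was lower in the atria than in the ventricles and higher in the atrium-like than in the ventricle-like parts by mean. Without atrium-like replicate 1 its value was 2.10 and called (edgeR adjusted p = 0.0243). Mki67 had a log2 difference of 1.11 (SE 0.50, edgeR adjusted p = 0.422) and Cdkn1a one of 1.13 (SE 0.52, edgeR adjusted p = 0.43).

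The atrium-like libraries differed more in these genes than in all genes tested, and the ventricle-like libraries differed less. Among the 42 members other than cyclin D and Cdkn1a, the median coefficient of variation over 3 libraries was 57.7% in the atrium-like parts and 20.3% in the ventricle-like parts, against 38.7% and 29.9% over all genes tested. It was 7.04% in the atria and 5.42% in the ventricles, against 12.3% and 11.6% over all genes. Atrium-like replicate 1 had the lowest of 6 organoid values in 38 of the 42 members (90.5%), and in 42.8% of all genes. Atrium-like replicate 2 had the highest in 37 of them (88.1%), and in 15.0% of all genes.

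As a share of the mean of the matching chamber, the 22 mitotic genes had a median of 14.2%, 49.6% and 29.2% in atrium-like replicates 1, 2 and 3. In ventricle-like replicates 1, 2 and 3 it was 30.2%, 26.3% and 29.2%. The 13 S phase genes had medians of 12.4%, 43.6% and 21.5% in the atrium-like parts and of 36.6%, 26.9% and 26.9% in the ventricle-like parts. Both groups of genes thus put the atrium-like replicates in 1 order, with replicate 1 lowest and replicate 2 highest. Within S phase genes Pcna kept the largest share in all 6 organoid libraries. The lowest single share was that of Cdc6 in atrium-like replicate 1, at 3.33%. These shares, and the spread and ranks above, rest on FPKM without the library scaling (TMM) used in the tests. Against the atria that scaling factor was 0.849 for atrium-like replicate 1 and between 0.974 and 1.066 for the other libraries. A factor below 1 raises the scaled level, so the shares of replicate 1 would be higher with it. Shares with that scaling were not computed.

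Among the atrium-like replicates Ccnd1 and Ccnd3 kept that order, and Ccnd2 and Cdkn1a did not. The summed cyclin D level was 150, 212 and 231 FPKM in atrium-like replicates 1, 2 and 3 and 184, 211 and 331 FPKM in ventricle-like replicates 1, 2 and 3. Cdkn1a was lowest in atrium-like replicate 2 (232 FPKM) and highest in ventricle-like replicate 3 (537 FPKM). The markers of hepatocytes and visceral endoderm summed to 14055, 693 and 5862 FPKM in the atrium-like and to 380, 110 and 6119 FPKM in the ventricle-like replicates. The cardiomyocyte markers summed to 308, 1199 and 988 FPKM in the atrium-like and to 2779, 1871 and 4518 FPKM in the ventricle-like replicates. Atrium-like replicate 1 was thus highest in the first list and lowest in the second, and the part of these cells in the order of the libraries was not tested.

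**Figure D4:**
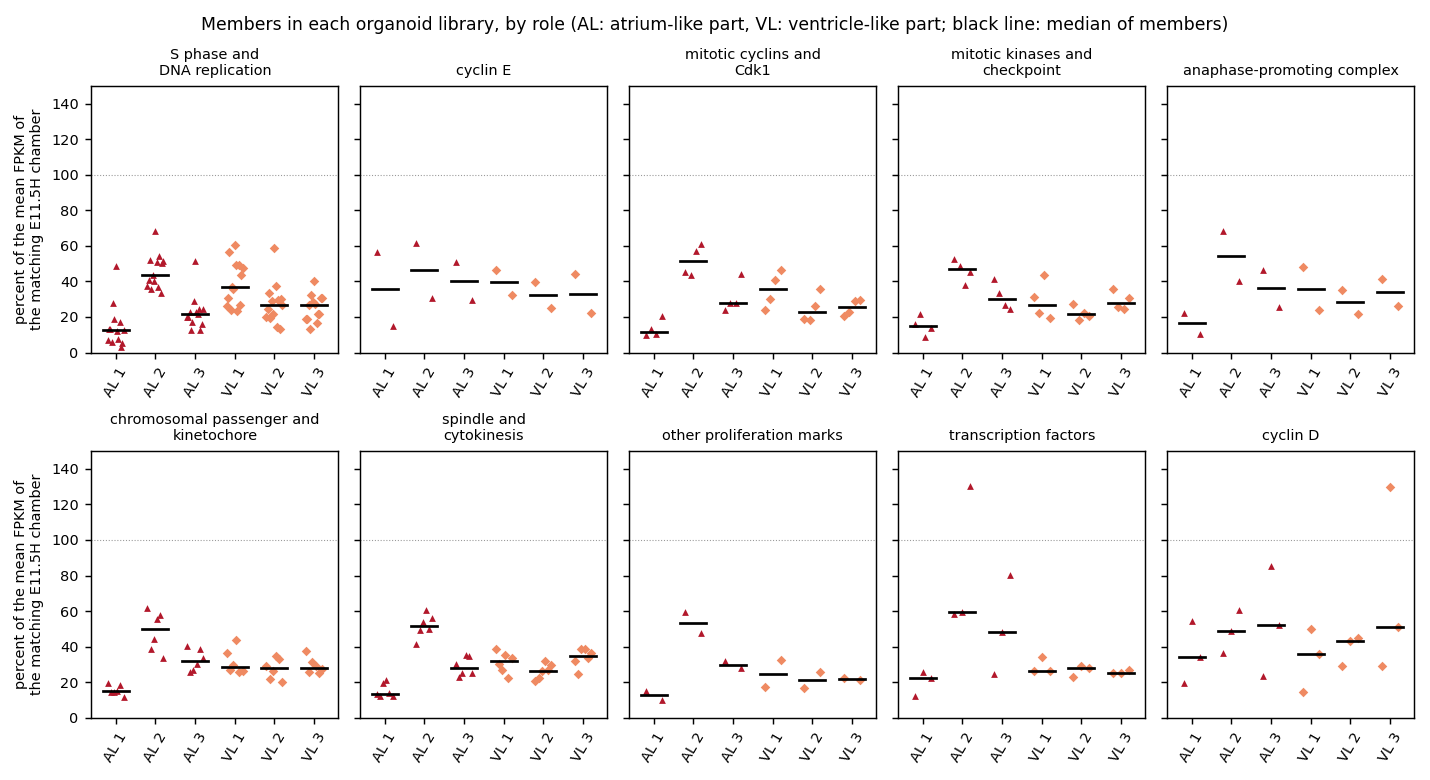
Level of each member in each organoid library as a percent of the mean FPKM of the matching E11.5H chamber, in panels by role, with the median of the panel as a black line and 100% dotted. Atrium-like replicate 1 (AL 1) has the lowest median in the S phase and mitotic panels and atrium-like replicate 2 (AL 2) the highest, with medians of 12.4% and 43.6% for S phase genes.

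Further S phase and mitosis genes went the same way in most cases. Of 30 more S phase genes, 19 were called lower in the atrium-like parts and 26 in the ventricle-like parts, and none was called higher. Over all genes tested, 8.81% and 7.35% were called lower. The median log2 fold changes of the list were -1.38 and -1.65. Gins1, a partner of Gins2, changed most on both sides, by -2.22 (edgeR adjusted p = 0.0111) and -2.81 (edgeR adjusted p = 0.0024). Next in the atrium-like parts were Uhrf1, which maintains DNA methylation at replication forks (-2.13), and the exonuclease gene Exo1 (-2.11). Next in the ventricle-like parts were Pole, a DNA polymerase (-2.43), and Dscc1, of a clamp loader (-2.41). The atrium-like count was 11 without atria replicate 1 or 2, when calls lower over all genes dropped from 1359 to 514 and 534.

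Of 33 more mitosis genes, 18 were called lower in the atrium-like parts and 31 in the ventricle-like parts, and none was called higher. Over all genes tested, 8.81% and 7.35% were called lower. The median log2 fold changes of the list were -1.46 and -1.71. Pttg1 was at 22.8, 21.5 and 24.7 FPKM in the ventricle-like parts, above the ventricles at 18.4, 17.1 and 17.5. Against the atria its log2 fold change was 0.20, the highest of the list, where 2 of 33 genes had positive values. The largest changes were those of the kinetochore gene Spc24 (-2.05), the checkpoint kinase gene Ttk (-1.97) and the condensin gene Ncapd2 (-1.96) in the atrium-like parts. For the ventricle-like parts they were those of the motor gene Kif15 (-2.45), the kinetochore gene Ndc80 (-2.18) and Incenp of the passenger complex (-2.16). The atrium-like count was 4, 5 and 6 without atria replicate 1, 2 and 3 and 9 without atrium-like replicate 3, and it was 27 without atrium-like replicate 2. Calls lower over all genes were 514, 534, 541, 1087 and 2454 in these settings, in that order, against 1359 with all libraries.

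Of 15 E2f and MuvB genes, 5 were called lower in the atrium-like parts and 3 in the ventricle-like parts, and none was called higher. Over all genes tested, 8.81% and 7.35% were called lower. E2f2, an activator, fell by 1.91 on the log2 scale (edgeR adjusted p = 0.0423) and by 2.73 (edgeR adjusted p = 0.00666). E2f8, a repressor, fell by 1.67 (edgeR adjusted p = 0.00464) and by 1.65 (edgeR adjusted p = 0.00902). Tfdp2, a partner of E2F factors, fell by 1.59 in the atrium-like parts, and the repressor gene E2f7 fell by 2.06 in the ventricle-like parts. Counts without 1 library ran from 3 to 7 in the atrium-like and from 2 to 5 in the ventricle-like parts, with the lowest values without atria replicate 2 or 3 and without any ventricles replicate. Calls lower over all genes were 534 and 541 without those atria replicates, against 1359 with all libraries. Without a ventricles replicate they were between 557 and 601, against 1110.

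Of 9 genes of G1 kinases and the Rb family, Myc rose on both sides, by 1.44 on the log2 scale (edgeR adjusted p = 0.00733) and by 1.23 (edgeR adjusted p = 0.0241). Myc was between 9.78 and 12.4 FPKM in E11.5H and between 16.1 and 38.8 FPKM in HOs. In the ventricle-like parts its call was lost without any 1 ventricles library (edgeR adjusted p up to 0.103) and without ventricle-like replicate 1 or 2. Rb1 rose in the atrium-like parts (1.06, edgeR adjusted p = 0.0386), a call lost without any 1 atria library, and Mycn (-1.85) and Rbl1 (-1.64) fell in the ventricle-like parts. Cdk2, the partner of cyclin E, fell by 1.40 in the atrium-like parts (edgeR adjusted p = 0.0233). Cdk4, the partner of cyclin D, was between 445 and 496 FPKM in E11.5H and between 178 and 284 FPKM in HOs, and its log2 fold change was just past the threshold in the atrium-like parts (-1.03). Without atrium-like replicate 3 neither Cdk2 nor Cdk4 was called in the atrium-like parts.

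The 6 other Cdk inhibitor genes split. Cdkn2b, for p15, was at 0.284, 0.469 and 0.531 FPKM in the atria, at 1.16, 1.91 and 0.826 in the ventricles, at 57.1, 45.4 and 26.0 in the atrium-like parts and at 37.0, 39.2 and 45.3 in the ventricle-like parts. It rose by 6.84 on the log2 scale (edgeR adjusted p = 0.00132) and by 4.87 (edgeR adjusted p = 0.00134). Cdkn2a, for p16 and p19Arf, had no fragment in any embryonic library and was between 0.269 and 2.03 FPKM in HOs. Against 3 fragments, the floor taken for each library, it was at least 16.4-fold higher in the atrium-like parts and at least 11.3-fold higher in the ventricle-like parts. Its call was lost without any 1 atria or ventricles library. In the ventricle-like comparison it did not pass the filter without ventricle-like replicate 1 or without hemoglobin genes.

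Cdkn1c, for p57, went the other way. It was at 603, 654 and 662 FPKM in the atria, at 956, 929 and 775 in the ventricles, at 53, 144 and 162 in the atrium-like parts and at 84.4, 196 and 106 in the ventricle-like parts. It was the highest of these genes in E11.5H, with no overlap between tissues. Cdkn1c fell 4.87-fold (edgeR adjusted p = 0.00762) and 7.39-fold (edgeR adjusted p = 0.00317). Cdkn2d fell in the atrium-like parts, a call lost without any 1 atria library (edgeR adjusted p = 0.071, 0.0543 and 0.0652), and Cdkn1b and Cdkn2c were not called.

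Of 12 p53 targets, a list that leaves out Cdkn1a, all 12 were called higher in the atrium-like parts and 9 in the ventricle-like parts. Over all genes tested, 16.0% and 11.6% were called higher. The median log2 fold changes of the list were 2.11 and 1.88. For all 12 the organoid libraries lay above the embryonic ones on both sides, as they did for 24.1% and 29.6% of all genes tested. Gdf15, a stress cytokine, was between 0.0166 and 0.457 FPKM in E11.5H and between 9.27 and 37.8 FPKM in HOs. Pmaip1, for the death factor Noxa, was between 0.0639 and 1.45 FPKM in E11.5H and between 11.6 and 50.6 FPKM in HOs. Gadd45a, a DNA damage gene, rose 9.61-fold (edgeR adjusted p = 0.00161) and 8.04-fold (edgeR adjusted p = 0.00871). Bax, Ccng1 and Trp53inp1 were not called in the ventricle-like parts. The atrium-like count was 7 and 6 without atria replicate 2 and 3, and the ventricle-like count was 4, 3 and 5 without ventricles replicate 1, 2 and 3. Calls higher over all genes also dropped, from 2462 to 1156 and 1185 in the first comparison. In the second comparison they dropped from 1749 to 600, 559 and 621. Gdf15 was also called between the embryonic chambers, with 0.0458, 0.0801 and 0.0166 FPKM in the atria and 0.455, 0.368 and 0.457 in the ventricles (edgeR adjusted p = 0.0312). The atria held 3, 5 and 1 fragments of it, near the floor of 3, against 27, 22 and 25 in the ventricles.

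**Figure D5:**
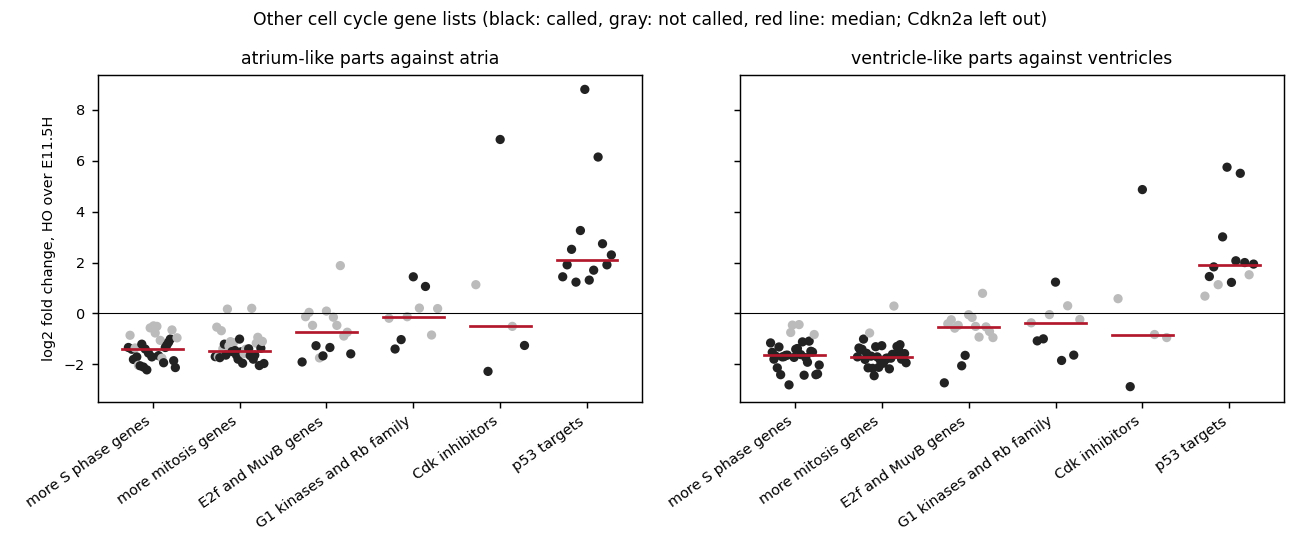
Log2 fold change of HO parts over the matching E11.5H chambers for 6 further gene lists, with called genes in black, others in gray and the median of each list in red. Cdkn2a is left out because it had no fragment in E11.5H. The medians of the S phase and mitosis lists lie below 0, and the 12 p53 targets all lie above 0, in both panels.

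In the annotation, Mcm7, Cdc45, Gins2, Ccne2, Ccna2, Cdc20, Kif20a, Nusap1, Prc1, Ccnd1 and Ccnd3 overlap a gene on the opposite strand, and Foxm1 overlaps others on its own. The kit named in the labels does not say whether strand was kept, and the counting is not stated to use it, so reads of these genes and their neighbours may not be fully told apart.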

How the data were processed

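Per the labels, RNA of dissected embryonic hearts and heart organoids was made into libraries with an Illumina TruSeq RNA kit, and the authors mapped reads to GRCm38/mm10 with STAR. The authors deposited estimated counts of fragments per gene (expected counts) and FPKM values for the same 12 libraries. The counting tool, the annotation and the use of strand are not given in the sources used here. Of the deposited count values 23.8% were not whole, and all were rounded. Libraries were grouped by their titles, and their depth, 23971258 to 30540993 fragments, limits only genes near 0, for which a floor of 3 fragments per library was taken. Floors cover counting error only.

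The rounded counts went into edgeR 4.0.16 (R 4.3.3), with TMM scaling, filterByExpr at a minimum count of 10 and the quasi-likelihood test, for each pair of groups and, for the interaction, over all 12 libraries. A call needed an adjusted p (Benjamini-Hochberg) below 0.05 and a log2 fold change beyond 1 in either direction. Each SE was derived from the test, as the absolute log2 fold change divided by the square root of its F statistic. The code was tested on simulated data. Alternatives used DESeq2 1.42.0, limma 3.58.1, other scalings and filters, and libraries left out in turn. FPKM values, which carry no TMM scaling, give the levels, overlaps, spread, ranks and shares, and no test. Tables and plots were made with Python 3.11.15, pandas 2.3.3, numpy 2.4.6 and matplotlib 3.10.9.

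The members, the lists and the markers were chosen with earlier results of these data known. Of the members, 17 are described with full values whatever they were, others as the extremes of their role or where called, and genes of the further lists as up to 3 called genes per list and comparison with the largest changes. Cdk4, Cdkn1b, Cdkn2c, Cdkn2d, Bax, Ccng1, Trp53inp1 and Pttg1 were named after their values were seen. Sgol1 of the mitosis list was matched as Sgo1. Promoter windows came from RefSeq (GRCm38.p6).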

Additional observations from a re-analysis of the deposited data

How the results depend on the processing

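Of 645 values of named genes under alternatives, 592 kept their direction and side of the threshold, 48 lost a call, 4 gained one and 1 turned its direction, Mybl2 in the atrium-like parts against the atria without atrium-like replicate 1 (0.12, in a range from -0.76 to 0.12 with 1 library left out). Against the atria, 45 of 46 members kept 1 sign in all 15 settings, and against the ventricles all 46 did. Leaving out 1 library at a time, the members called ranged from 6 to 41 for the atrium-like parts, from 42 to 45 for the ventricle-like parts, from 0 to 1 between the embryonic chambers (Cdkn1a) and from 0 to 1 for the interaction (Mybl2). Calls over all genes then ranged from 1662 to 5495, from 1116 to 3725, from 538 to 765 and from 2 to 216. With all libraries they were 3821, 2859, 712 and 25. Between the embryonic chambers, 5 members passed on the adjusted p alone. With scaling to 12 housekeeping genes the median of the members was 0.09 there and -1.66 for the ventricle-like parts against the ventricles. That scaling moved the median of all genes from 0.014 to 0.23 and from 0.093 to 0.30 in these comparisons, and from -0.031 to -0.32 in the interaction. The causes of these shifts were not tested.

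With a replicate block, 30 members were called for the atrium-like parts against the atria, 29 of them lower, and 45 for the ventricle-like parts against the ventricles, with 0 in the other comparisons. The block joined libraries by number, also across tissues, where a shared number has no stated meaning. Same-numbered libraries deviated together with r = -0.052, 0.63 and 0.40 between the parts of HOs and between -0.022 and 0.092 between the tissues. The numbers were therefore not taken as a pairing, and not every library correlated best with its own number. With the block, 13 of the 33 further mitosis genes were called in the atrium-like parts, against 18 without it. Under the block Cdkn2a was not called on either side (edgeR adjusted p = 0.0711 and 0.0955), nor was Myc in the ventricle-like parts (edgeR adjusted p = 0.0694).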
